A study of Mus musculus with 16 samples.

Results

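The guanylate-binding protein (Gbp) genes were followed across 16 melanoma tumours grown in mice. The genes were taken by symbol: Gbp2, Gbp3, Gbp4, Gbp5, Gbp6, Gbp7 and Gbp8, all 7 of which were found among the 16094 genes of the table. Tumours were grown from B16R2L, a mouse melanoma cell line that carried 1 of 2 short hairpin RNAs, and all mice were injected with an antibody. In shMdk anti-PD1 tumours the cells carried a hairpin against Mdk, which encodes midkine, a growth factor that cells secrete, and the mice received the anti-PD1 antibody RMP1-14, which blocks a checkpoint receptor of T cells. In shMdk IgG2a tumours the cells carried the same Mdk hairpin and the mice received the IgG2a control antibody. In shCtrl anti-PD1 tumours the cells carried a non-targeting hairpin and the mice received RMP1-14. In shCtrl IgG2a tumours the cells carried the non-targeting hairpin and the mice received IgG2a. Each group had 4 tumours. The anti-PD1 dose was 10 mg/kg by the sample labels (the series' design text has the same number in grams per kg), injected 2 times per week for 2 weeks from a tumour volume of 100 mm3, and no dose is given for IgG2a. A single hairpin stands for each condition, and the strain and age of the mice are not given in the sources used here. Whole tumours were measured, so fewer cells of a type and less RNA per cell cannot be told apart.

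Guanylate-binding proteins are large GTPases that interferons induce, interferon gamma most of all. They assemble on vacuoles and bacteria inside cells, help to break open the membranes around them, and promote inflammasome activation. Interferon gamma acts on promoters through GAS elements, and Irf1, an interferon-induced transcription factor, and the type I interferon factors bind ISRE elements. In tumours, Gbp transcripts are commonly read as a trace of interferon gamma made by T cells and NK cells, and both the immune cells and the melanoma cells can make them.

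The mouse family sits in clusters on chromosomes 3 and 5. On chromosome 3, in GRCm38 coordinates of GENCODE M21, the plus strand held Gbp5 (142493978 to 142522344), Gbp7 (142530342 to 142550149), Gbp3 (142560026 to 142573209) and Gbp2 (142620602 to 142638008). On chromosome 5 the minus strand held Gbp8 (105014150 to 105139540), Gbp4 (105115767 to 105139586) and Gbp6 (105270702 to 105293698). The models of Gbp4 and Gbp8 overlapped each other and that of Gbp9 on the same strand. Of the last 300 bases of each transcript, where these 3′ reads fall, 11.6% of the 50-base windows of Gbp4 and of Gbp6 were shared exactly with another Gbp gene, and 0 in Gbp2, Gbp3, Gbp5, Gbp7 and Gbp8. Over the whole transcript the shared part was 63.0% for Gbp6, 18.2% for Gbp8 and 12.8% for Gbp4. The split of reads between these chromosome 5 genes is therefore less certain than for chromosome 3. Of 4 further mouse family members looked for, Gbp9 alone was listed. Gbp2b, Gbp10 and Gbp11 are not analysed here.

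The promoters of the chromosome 3 genes are printed because these genes share 1 locus yet differed in how far their levels moved between groups. RefSeq (GRCm38.p6) gave promoter entries for 4 of the 7 genes. Each line holds the 250 bases before a gene's RefSeq start, 5′ to 3′, with matches in capitals to an ISRE-like motif, TTTCNNTTTC, or a GAS-like motif, TTCNNNGAA. Both strands were searched, and the GAS-like motif reads the same on either. The RefSeq starts of Gbp5, Gbp3 and Gbp2 lie downstream of the starts of their GENCODE models, so the matches in Gbp5 and in Gbp2 fall inside those models, and the matches in Gbp7 and Gbp3 before them.
Gbp5, chr3:142496684-142496933, plus strand: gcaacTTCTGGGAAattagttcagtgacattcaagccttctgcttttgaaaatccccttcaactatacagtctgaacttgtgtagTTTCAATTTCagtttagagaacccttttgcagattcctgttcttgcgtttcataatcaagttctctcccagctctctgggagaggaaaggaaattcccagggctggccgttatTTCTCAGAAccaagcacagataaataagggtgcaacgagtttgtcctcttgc
Gbp7, chr3:142530086-142530335, plus strand: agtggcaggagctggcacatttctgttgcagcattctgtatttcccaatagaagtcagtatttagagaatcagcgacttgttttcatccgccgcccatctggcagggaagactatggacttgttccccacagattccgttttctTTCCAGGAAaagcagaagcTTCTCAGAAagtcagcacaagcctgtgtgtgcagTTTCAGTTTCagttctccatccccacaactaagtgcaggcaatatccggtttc
Gbp3, chr3:142559794-142560043, plus strand: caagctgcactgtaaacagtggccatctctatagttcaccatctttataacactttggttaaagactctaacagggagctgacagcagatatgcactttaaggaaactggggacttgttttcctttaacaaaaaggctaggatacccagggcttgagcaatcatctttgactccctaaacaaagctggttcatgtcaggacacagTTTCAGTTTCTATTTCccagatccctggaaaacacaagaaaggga
Gbp2, chr3:142620413-142620662, plus strand: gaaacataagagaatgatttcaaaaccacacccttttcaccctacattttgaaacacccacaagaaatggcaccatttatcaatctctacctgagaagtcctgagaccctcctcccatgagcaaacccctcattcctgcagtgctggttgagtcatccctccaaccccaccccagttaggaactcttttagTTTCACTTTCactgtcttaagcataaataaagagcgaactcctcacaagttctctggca
An ISRE-like match was found in all 4 windows, with its first base 165 bases before the start in Gbp5, 53 in Gbp7 and 59 in Gbp2. In Gbp3 a pair of matches overlapped, beginning 45 and 39 bases before the start. GAS-like matches stood in the windows of Gbp5, at 245 and 52 bases, and of Gbp7, at 106 and 87 bases, and the windows of Gbp3 and Gbp2 held none of these letters. A second RefSeq start of Gbp3, further downstream, had neither motif in its window. Of 32851 promoter windows of the same length, 2.98% held the ISRE-like motif, 7.02% the GAS-like motif and 0.332% both. These matches describe the letters only.

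RNA was counted by its 3′ ends, with 5686405 to 8886334 reads per tumour recovered from the deposited values and 15508 to 16014 genes with at least 1 read. Values below are normalised reads, that is, read counts divided by a size factor per tumour. The reads of the gene Gm42418 made up 3.17% to 4.47% of the total in shMdk IgG2a tumour 1 and shCtrl anti-PD1 tumour 2, against 0.880% to 1.56% in the other tumours. Another 5 libraries (shMdk anti-PD1 tumour 1, shMdk IgG2a tumours 3 and 4, shCtrl IgG2a tumours 1 and 2) had a positive slope of expression on GC content, 0.088 to 0.187 log2 units per 10% GC, against -0.129 to -0.0004 in the rest. Tumour numbers only name a tumour within its group. The hairpin target checked the labels. Mdk had 312, 289.9, 147 and 96.5 normalised reads in shMdk anti-PD1 tumours and 150.2, 203, 323 and 121 in shMdk IgG2a tumours, against 925, 606, 1104 and 856 in shCtrl anti-PD1 tumours and 601, 727, 959 and 1161 in shCtrl IgG2a tumours. No shMdk tumour reached the level of any shCtrl tumour, and Mdk fell by 2.16 ± 0.36 log2 units under IgG2a (limma adjusted p = 0.00428) and by 2.17 ± 0.36 under anti-PD1 (adjusted p = 0.00166).

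Gbp7 was the most abundant member in all 16 tumours. Its product is linked in mice to the assembly of the phagocyte oxidase. Gbp7 had 1204, 1684, 1498 and 1135 normalised reads in shMdk anti-PD1 tumours and 741, 1171, 1827 and 1148 in shMdk IgG2a tumours. It had 469, 155, 809.8 and 719.8 in shCtrl anti-PD1 tumours and 640.5, 327, 521 and 324 in shCtrl IgG2a tumours. Every shMdk tumour lay above every shCtrl tumour given the same antibody, while single tumours of the 2 antibody groups overlapped within each hairpin.

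Gbp2, whose product coats parasite vacuoles and bacteria in mouse cells, was second by its mean over the 16 tumours, though Gbp3 was above it in the mean of shCtrl IgG2a tumours. Gbp2 had 528, 798, 766 and 519 normalised reads in shMdk anti-PD1 tumours and 309, 269, 635 and 234 in shMdk IgG2a tumours. It had 48.7, 22.5, 159.9 and 163 in shCtrl anti-PD1 tumours and 64.2, 27.7, 36.1 and 44.3 in shCtrl IgG2a tumours. The shMdk tumours were all above the shCtrl tumours, and shCtrl anti-PD1 tumours fell into a low and a high pair.

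Gbp4 had the widest range between groups. Its product has been described as a brake on the interferon factor Irf7. Gbp4 had 447, 470.0, 418 and 430.0 normalised reads in shMdk anti-PD1 tumours, a narrow range, and 191, 150.1, 403 and 119.8 in shMdk IgG2a tumours. It had 15.6, 3.00, 66.9 and 88.1 in shCtrl anti-PD1 tumours and 11.3, 6.39, 6.66 and 2.77 in shCtrl IgG2a tumours. Only 26 reads in all supported Gbp4 in the shCtrl IgG2a group, against 876 in shMdk IgG2a tumours. The shMdk groups did not overlap each other or either shCtrl group.

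Gbp3, a neighbour of Gbp2 and part of the chromosome 3 cluster that mice need to control Toxoplasma, had 172, 261, 211 and 232 normalised reads in shMdk anti-PD1 tumours and 154, 128, 193 and 86.2 in shMdk IgG2a tumours. It had 69.9, 30.0, 130.2 and 107 in shCtrl anti-PD1 tumours and 76.5, 26.6, 68.5 and 29.5 in shCtrl IgG2a tumours. The highest shCtrl anti-PD1 tumours overlapped the lowest shMdk IgG2a tumours.

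Gbp5, whose product promotes NLRP3 inflammasome assembly, had 73.8, 106, 106 and 61.8 normalised reads in shMdk anti-PD1 tumours and 36.7, 48.2, 95.7 and 47.3 in shMdk IgG2a tumours. It had 4.60, 0, 13.0 and 18.9 in shCtrl anti-PD1 tumours and 5.63, 4.26, 7.61 and 3.69 in shCtrl IgG2a tumours. No shCtrl tumour reached the lowest shMdk tumour.

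Gbp8 and Gbp6 were the scarcest members. Gbp8 had 34.0, 68.5, 28.0 and 41.5 normalised reads in shMdk anti-PD1 tumours and 20.03, 19.1, 23.7 and 6.31 in shMdk IgG2a tumours, against 0.920, 0, 11.2 and 9.89 in shCtrl anti-PD1 tumours and 0, 2.13, 0.951 and 0.923 in shCtrl IgG2a tumours. Gbp6 had 10.7, 11.8, 9.32 and 7.62 normalised reads in shMdk anti-PD1 tumours and 0, 5.46, 11.4 and 10.5 in shMdk IgG2a tumours, against 0.920, 0, 7.44 and 2.70 in shCtrl anti-PD1 tumours and 1.13, 0, 1.90 and 0.923 in shCtrl IgG2a tumours. Gbp8 was thus near the limit of detection in most shCtrl tumours, and Gbp6 overlapped between most groups. Gbp6 averaged 5.11 normalised reads over the 16 tumours, just above the minimum mean of 5 for testing. In the shCtrl tumours alone Gbp6 averaged 1.88 and Gbp8 3.25, so both passed that minimum through the shMdk tumours, and the other 5 genes averaged at least 5 in shCtrl tumours too.

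**Figure D1:**
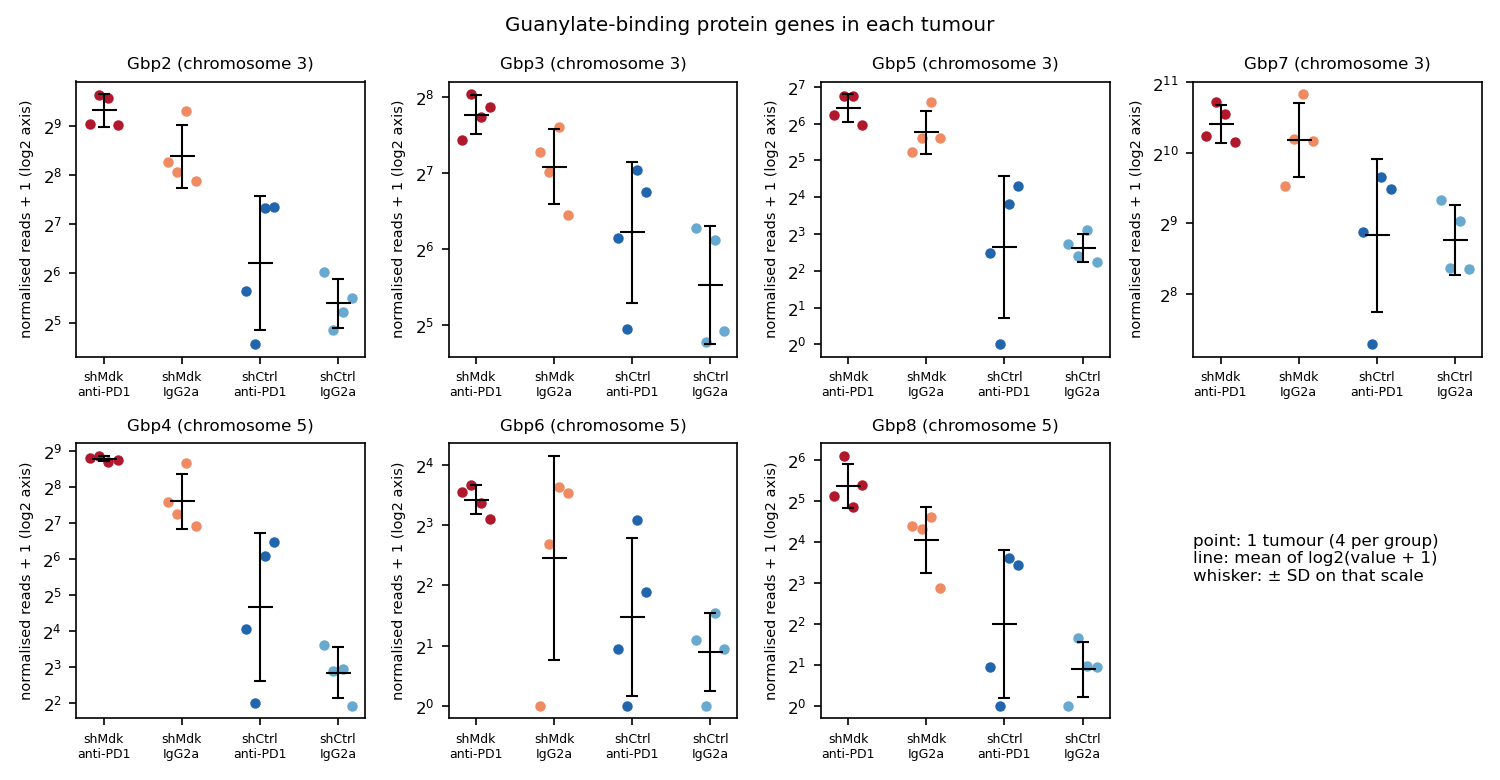
Normalised reads plus 1 of the 7 genes on a log2 axis, 1 point per tumour, with the mean and SD of log2(value + 1) of each group of 4. The shMdk tumours stand above the shCtrl tumours given the same antibody for all genes but Gbp6 under IgG2a, and shCtrl anti-PD1 is the most spread group on this scale for all genes but Gbp6.

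Under IgG2a, Mdk knockdown came with higher Gbp levels. Gbp2, Gbp4, Gbp5 and Gbp8 rose, 4 of the 7 genes tested, where 1.63% of all 14672 genes tested were called higher. Gbp2 averaged 362 ± 185 normalised reads in shMdk IgG2a tumours and 43.1 ± 15.6 in shCtrl IgG2a tumours (SD, n = 4 each), 8.40-fold higher. Gbp4 averaged 216 ± 128 in shMdk IgG2a tumours and 6.77 ± 3.48 in shCtrl IgG2a tumours, 31.9-fold higher. Gbp5 averaged 57.0 ± 26.4 and Gbp8 17.3 ± 7.58 in shMdk IgG2a tumours, against 5.30 ± 1.74 and 1.001 ± 0.873 in shCtrl IgG2a tumours. The other 3 genes had higher means without passing the test. Of the 5 genes that also averaged at least 5 in shCtrl tumours, which leaves out Gbp6 and Gbp8, 3 were called.

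Genes were tested with limma on log2(value + 1), with Benjamini-Hochberg adjustment over all genes and a threshold of 0.05, so the log2 fold changes that follow understate changes of low genes. In limma, Gbp4 rose by 4.76 ± 0.70 log2 units (SE, adjusted p = 0.00215), Gbp2 by 2.99 ± 0.50 (adjusted p = 0.00428), Gbp5 by 3.15 ± 0.66 (adjusted p = 0.0160) and Gbp8 by 3.17 ± 0.71 (adjusted p = 0.0253). Below the threshold stood Gbp3 at 1.55 ± 0.41 log2 units (limma adjusted p = 0.0736), Gbp7 at 1.42 ± 0.40 (adjusted p = 0.105) and Gbp6 at 1.57 ± 0.77 (adjusted p = 0.545). Between shMdk IgG2a and shCtrl IgG2a tumours there was no overlap for 6 of the 7 genes, all but Gbp6, where 4.16% of all genes tested stood higher without overlap. The median log2 fold change of the 7 genes was 2.99, beside -0.01 over all genes tested. The overlap count includes Gbp8, and the median Gbp6 and Gbp8, which both passed the minimum mean through the shMdk tumours. The other genes without overlap were Gbp2, Gbp3, Gbp4, Gbp5 and Gbp7. Gbp9 rose as well, with 37.3 ± 10.2 normalised reads in shMdk IgG2a tumours and 5.13 ± 2.97 in shCtrl IgG2a tumours (log2 fold change 2.73 ± 0.57, limma adjusted p = 0.0164). Its call was lost without shMdk IgG2a tumour 3 (adjusted p = 0.0655) or shCtrl IgG2a tumours 2 (0.0594) or 4 (0.0555), and without the 5 libraries with a positive GC slope (0.165).

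The count under IgG2a depended on the libraries. Leaving out shMdk IgG2a tumour 3, the highest of its group for 7 of the 7 genes, or shCtrl IgG2a tumour 4 left 2 genes called, Gbp2 and Gbp4, which passed in 16 of 16 fits that left out 1 tumour. Gbp8 lost its call in 6 of these 16 fits, on leaving out any of shMdk IgG2a tumours 1, 2 and 3 or shCtrl IgG2a tumours 1, 3 and 4. Without the 5 libraries with a positive GC slope, which left 2 tumours in each IgG2a group, 0 of 6 genes tested passed in limma: Gbp4 then stood 4.99 ± 1.06 log2 units higher (adjusted p = 0.0582) and Gbp2 2.82 ± 0.71 (adjusted p = 0.0917). With DESeq2, or without the 2 libraries high in Gm42418, 6 of the 7 genes passed.

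Under anti-PD1, Gbp2, Gbp3, Gbp4, Gbp5, Gbp7 and Gbp8 rose with Mdk knockdown, 6 of the 7 genes, where 4.93% of all genes tested were called higher. Gbp2 averaged 653 ± 149.8 normalised reads in shMdk anti-PD1 tumours and 98.5 ± 73.3 in shCtrl anti-PD1 tumours (SD, n = 4 each), 6.63-fold higher. Gbp4 averaged 441 ± 22.6 in shMdk anti-PD1 tumours and 43.4 ± 40.6 in shCtrl anti-PD1 tumours, 10.2-fold higher. For Gbp7 the means were 1380.3 ± 257 in shMdk anti-PD1 tumours and 538 ± 294 in shCtrl anti-PD1 tumours, 2.56-fold higher. The summed reads of the 7 genes were 2469, 3400.0, 3037 and 2427 in shMdk anti-PD1 tumours, against 609.7, 210.2, 1198 and 1109 in shCtrl anti-PD1 tumours. Without Gbp6 and Gbp8, 5 of 5 genes were called.

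On the log2 scale, Gbp4 rose by 4.13 ± 0.70 (SE, limma adjusted p = 0.00199), Gbp5 by 3.77 ± 0.66 (adjusted p = 0.00229), Gbp8 by 3.38 ± 0.71 (adjusted p = 0.00756) and Gbp2 by 3.10 ± 0.50 (adjusted p = 0.00136). Gbp7 rose by 1.58 ± 0.40 (limma adjusted p = 0.0258) and Gbp3 by 1.54 ± 0.41 (adjusted p = 0.0340). Gbp6, at 1.95 ± 0.77, did not pass (limma adjusted p = 0.176). No overlap between shMdk and shCtrl tumours was seen for 7 of the 7 genes, against 8.23% of all genes tested that stood higher without overlap. The median log2 fold change of the 7 genes was 3.10, beside -0.02 over all genes tested. Both figures include Gbp6 and Gbp8, which passed the minimum mean through the shMdk tumours. For Gbp6 the lowest shMdk anti-PD1 tumour had 7.62 normalised reads and the highest shCtrl anti-PD1 tumour 7.44. Gbp9 rose by 2.37 ± 0.57 (limma adjusted p = 0.0190), a call lost without shMdk anti-PD1 tumours 1 (0.0605) or 2 (0.0741) and without the 5 libraries with a positive GC slope (0.0703). The calls of Gbp2, Gbp4, Gbp5 and Gbp8 held in 16 of 16 fits that left out 1 tumour. Gbp3 lost its call in 6 of them, without any 1 of the 4 shMdk anti-PD1 tumours or shCtrl anti-PD1 tumours 1 or 2 (adjusted p up to 0.101), and Gbp7 in 4, without shMdk anti-PD1 tumours 1, 2 or 3 or shCtrl anti-PD1 tumour 1 (adjusted p up to 0.0819). Both calls were lost in limma without the trend (adjusted p = 0.0564 for Gbp3 and 0.0505 for Gbp7), that of Gbp3 without the 2 libraries high in Gm42418 (0.0928) and that of Gbp7 without the 5 libraries with a positive GC slope (0.0605).

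**Figure D2:**
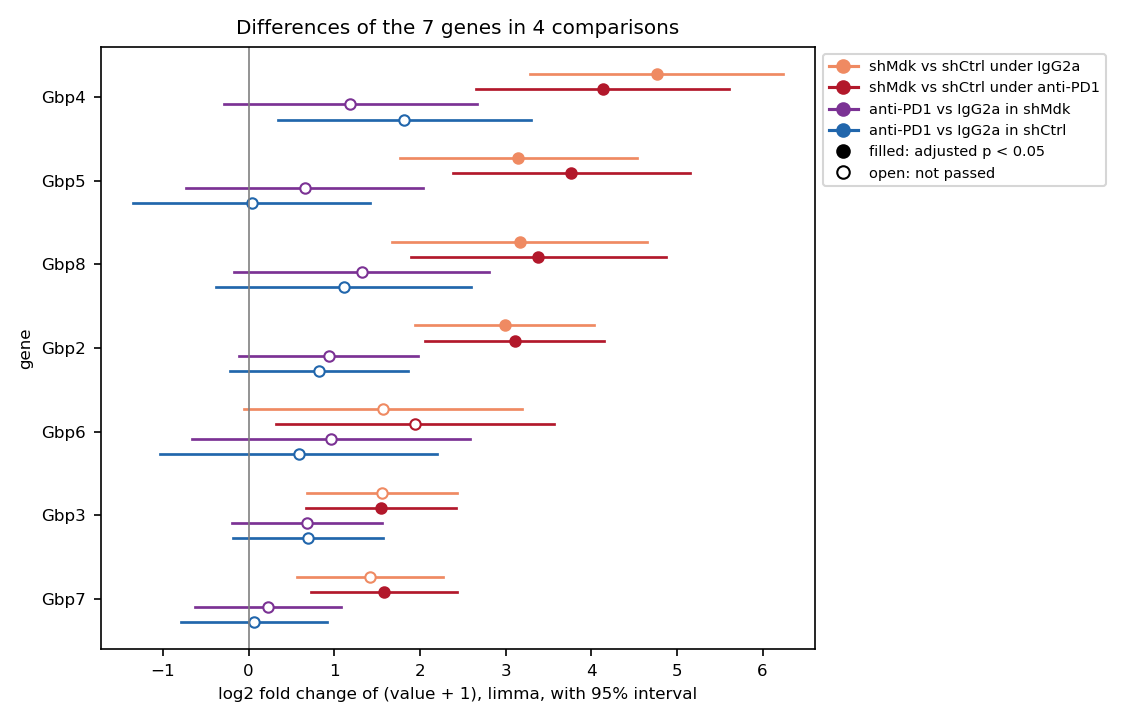
Log2 fold change of (value + 1) with its 95% interval for each gene in 4 comparisons, filled where the adjusted p was under 0.05. Filled points occur in the knockdown comparisons (4 genes under IgG2a, 6 under anti-PD1) and in neither antibody comparison.

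The antibody itself gave no called Gbp gene. In shMdk tumours, 0 of the 7 genes passed for anti-PD1 against IgG2a in limma, where 0.0341% of all genes tested were called, and 0 of the 7 had an unadjusted p under 0.05, beside 12.4% of all genes tested. Means were higher under anti-PD1 for all 7: Gbp8 averaged 43.0 ± 17.9 normalised reads in shMdk anti-PD1 tumours and 17.3 ± 7.58 in shMdk IgG2a tumours, a log2 fold change of 1.32 with a 95% interval of -0.16 to 2.81. For Gbp4 the log2 fold change was 1.19 (95% interval -0.29 to 2.66) and for Gbp7 0.23 (-0.62 to 1.08). There was no overlap between the antibody groups for 2 genes, Gbp4 and Gbp8, against 4.42% of all genes tested that stood higher without overlap.

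In shCtrl tumours, 0 of the 7 genes passed for anti-PD1 against IgG2a in limma, where 0% of genes tested were called, and 1 gene had an unadjusted p under 0.05, beside 3.79% of all genes tested. The groups overlapped for all 7 genes, beside 0.981% of all genes tested that stood higher without overlap. The 1 gene was Gbp4, with 43.4 ± 40.6 normalised reads in shCtrl anti-PD1 tumours and 6.77 ± 3.48 in shCtrl IgG2a tumours (log2 fold change 1.82, 95% interval 0.34 to 3.29, limma adjusted p = 0.798). Gbp5 stood at 0.04 log2 units (95% interval -1.35 to 1.42) and Gbp7 0.06 (-0.79 to 0.92). With edgeR and with DESeq2, 0 of the 7 genes passed in shMdk or in shCtrl tumours. For 5 of the 7 genes in shCtrl tumours, and for every one of the genes in shMdk tumours, the interval held both no change and a 2-fold rise. A change of that size could not be told from none for those genes with 4 tumours per group.

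Whether the antibody effect differed between hairpins was tested as the difference of the 2 effects, shMdk minus shCtrl. It passed for 0 of the 7 genes in limma (0% of all genes tested), and 0 of the 7 had an unadjusted p under 0.05, beside 3.45% of all genes tested. The difference ran from -0.63 ± 0.99 for Gbp4 to 0.62 ± 0.93 log2 units for Gbp5 (SE). The knockdown comparisons contrast different tumours, but each shares its tumours with the antibody comparisons. They are not independent either, because 1 fit estimated the spread from all 16 tumours. Leaving out shCtrl anti-PD1 tumour 2 changed the calls of Gbp3 and Gbp7 under IgG2a, which then passed.

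The order of the 4 group means was the same for all 7 genes, shMdk anti-PD1 above shMdk IgG2a, then shCtrl anti-PD1, then shCtrl IgG2a. Neighbours that share a hairpin and differ in antibody did not pass, as given above. The middle pair, shMdk IgG2a against shCtrl anti-PD1, differs in both hairpin and antibody. Gbp2, Gbp4 and Gbp5 did not overlap there (two-sided exact permutation p = 0.0286 each, the smallest that 4 against 4 tumours allow), with Benjamini-Hochberg adjusted p = 0.0667 over the 7 genes. With these genes alone at the smallest p, no lower adjusted value was possible, so failing to pass decides nothing about them. In that pair 4.59% of all genes tested stood higher without overlap. The other 4 genes overlapped, with adjusted exact permutation p from 0.1 to 0.4.

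In all groups but shCtrl IgG2a, a single tumour stood highest or lowest for at least 6 of the 7 genes. In shCtrl anti-PD1 tumours, numbers 3 and 4 held the top pair of values for 7 of the 7 genes, and tumour 2 the lowest for all 7, at 0 for Gbp5, Gbp6 and Gbp8. That tumour 2 had the fewest reads of all libraries (5686405) and the highest Gm42418 share (4.47%). In shMdk IgG2a tumours, number 3 was highest for 7 of the 7, and in shMdk anti-PD1 tumours number 2 was highest for 6 of the 7. Tumour 1 of shMdk IgG2a was lowest for 3 genes but in the top pair for 4. In shCtrl IgG2a tumours the highest value fell in tumour 1 for 4 genes, tumour 3 for 2 and tumour 2 for 1. Ptprc, the pan-leukocyte gene CD45, had 23.0, 12.01, 52.1 and 53.9 normalised reads in shCtrl anti-PD1 tumours 1 to 4, with its lowest tumour and its top pair the same as for the Gbp genes. In shMdk IgG2a tumours Ptprc had 177, 87.3, 118 and 126, and there the tumour highest in Gbp genes was not the highest. In those tumours the summed T cell markers were 95.7, 83.7, 136 and 80.9, highest in tumour 3. The macrophage and monocyte sums were 4436, 1889.9, 3254 and 4019 and the NK cell sums 74.5, 48.2, 61.6 and 51.5, both highest in tumour 1. In shCtrl anti-PD1 tumours the NK cell sum was 78.1 in tumour 2, the lowest in Gbp genes, and 4.60 to 15.3 in the other 3.

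The make-up of the family's reads differed between groups. Because 3′ counting does not scale with transcript length, members can be set side by side as shares. Gbp7 made up 48.7% of the normalised Gbp reads of shMdk anti-PD1 tumours (46.8% to 49.5% by tumour) and 60.4% of those of shMdk IgG2a tumours (51.0% to 69.5%). In shCtrl anti-PD1 tumours it made up 68.9% (64.9% to 76.9%) and in shCtrl IgG2a tumours 80.8% (79.8% to 83.0%). Gbp4 took 15.6% in shMdk anti-PD1, 10.7% in shMdk IgG2a, 5.55% in shCtrl anti-PD1 and 1.21% in shCtrl IgG2a tumours. Gbp2 took 23.0% in shMdk anti-PD1, 17.9% in shMdk IgG2a, 12.6% in shCtrl anti-PD1 and 7.68% in shCtrl IgG2a tumours.

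Set against Gbp7 in the same tumours, Gbp4 differed more between the hairpins than Gbp3 did. The log2 ratio of Gbp4 to Gbp7 was -1.63 ± 0.25 in shMdk anti-PD1 tumours and -2.58 ± 0.62 in shMdk IgG2a tumours, against -4.17 ± 1.06 in shCtrl anti-PD1 tumours and -5.93 ± 0.42 in shCtrl IgG2a tumours (SD, n = 4 each). The ratio of Gbp3 to Gbp7 was -2.65 ± 0.25 in shMdk anti-PD1 tumours and -3.10 ± 0.61 in shMdk IgG2a tumours, against -2.61 ± 0.19 in shCtrl anti-PD1 tumours and -3.23 ± 0.31 in shCtrl IgG2a tumours. Of 24 such tests, 6 genes in 4 comparisons, 12 had groups that did not overlap (two-sided exact permutation p = 0.0286), and 0 passed after adjustment over the 24 (smallest adjusted p = 0.0571). With 12 of 24 tests at the smallest p that 4 against 4 tumours allow, no lower adjusted value was possible. Failing to pass therefore decides nothing about those 12. These ratios were chosen for testing after their values were seen. How often the ratio of any other gene to Gbp7 separates the groups was not counted, so the 12 have no background share beside them. The 24 tests share Gbp7 and the same tumours. They include Gbp6 and Gbp8, which passed the minimum mean through the shMdk tumours, and Gbp8 with knockdown under anti-PD1 is among the 12.

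**Figure D3:**
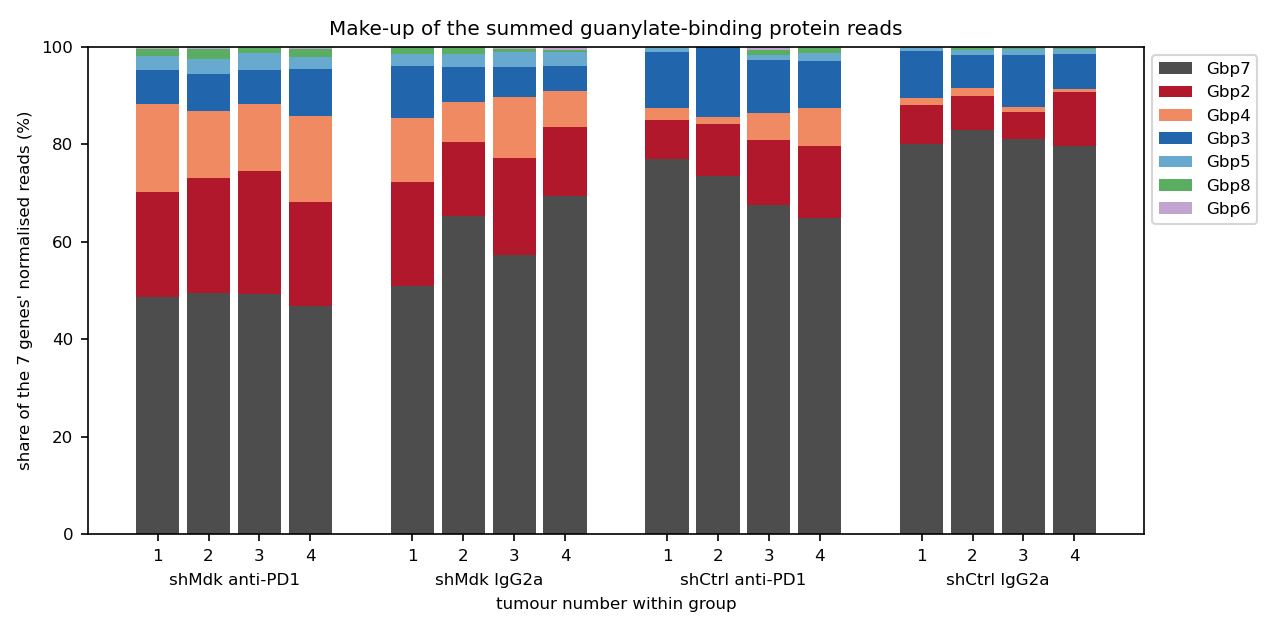
Share of each gene in the summed normalised reads of the 7 genes, in percent, 1 bar per tumour, tumours numbered within their group. The Gbp7 share runs from 46.8% to 49.5% in shMdk anti-PD1 tumours and from 79.8% to 83.0% in shCtrl IgG2a tumours, with the other groups between.

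Between groups, the pan-leukocyte gene Ptprc moved with the Gbp genes, but within groups the order of tumours could differ. In shCtrl IgG2a tumours 1 to 4 Ptprc had 34.9, 27.7, 6.66 and 9.23 normalised reads, beside Gbp sums of 799, 394, 643 and 406. In shMdk anti-PD1 tumours 1 to 4 it had 266, 292, 142 and 128, beside Gbp sums of 2469, 3400, 3037 and 2427. Ptprc ranged over 128 to 292 normalised reads in shMdk anti-PD1 tumours and 87.3 to 177 in shMdk IgG2a tumours, against 12.01 to 53.9 in shCtrl anti-PD1 tumours and 6.66 to 34.9 in shCtrl IgG2a tumours. Ptprc rose with knockdown by 2.88 ± 0.51 log2 units under IgG2a (limma adjusted p = 0.00614) and 2.66 ± 0.51 under anti-PD1 (adjusted p = 0.00445). With knockdown the leukocyte gene changed by a size within the range of the Gbp genes.

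By cell type, markers were counted where 1.63% of all genes tested were called higher with knockdown under IgG2a and 4.93% under anti-PD1. Short lists give few or none at those shares. Macrophage and monocyte markers rose in 5 of 12 genes under IgG2a and 11 of 12 under anti-PD1 with knockdown. Their summed level was 4127 to 9406 in shMdk anti-PD1, 1889.9 to 4436 in shMdk IgG2a, 471 to 1944 in shCtrl anti-PD1 and 577 to 1433 in shCtrl IgG2a tumours. T cell markers rose in 0 of 7 genes under IgG2a and 5 of 7 under anti-PD1, with sums of 101 to 311 in shMdk anti-PD1, 80.9 to 136 in shMdk IgG2a, 21.2 to 52.1 in shCtrl anti-PD1 and 7.61 to 60.8 in shCtrl IgG2a tumours. The median log2 fold change of the T cell markers was 1.85 under IgG2a and 2.54 under anti-PD1. The 7 T cell genes include Cd3d and Cd8a, which passed the minimum mean for testing through the shMdk tumours. Cd3d averaged 2.03 normalised reads in shCtrl anti-PD1 and 2.88 in shCtrl IgG2a tumours, and Cd8a 1.83 and 1.02. NK cell markers rose in 2 of 3 genes in both comparisons. B cell markers rose in 0 of 3 in both, with median log2 fold changes of 0.88 under IgG2a and 0.73 under anti-PD1. Melanocyte and melanoma markers changed in 0 of 7 genes in both, with sums of 107394 to 143030.2 in shMdk anti-PD1 tumours and 126434 to 146591 in shMdk IgG2a tumours, against 134737 to 182973 in shCtrl anti-PD1 tumours and 151635 to 187437 in shCtrl IgG2a tumours. Under IgG2a every shMdk melanoma sum lay below every shCtrl sum, and under anti-PD1 the sums overlapped. The marker counts cover only the listed genes found in the data: 7 of 9 for T cells, 3 of 6 for NK cells and 3 of 5 for B cells. All 12 macrophage and monocyte and all 7 melanoma markers were found. The defining genes of the melanocyte lineage were present in all groups, and no marker found in the data was at 0 over a whole group. The part of cell numbers in the Gbp differences was not tested.

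**Figure D4:**
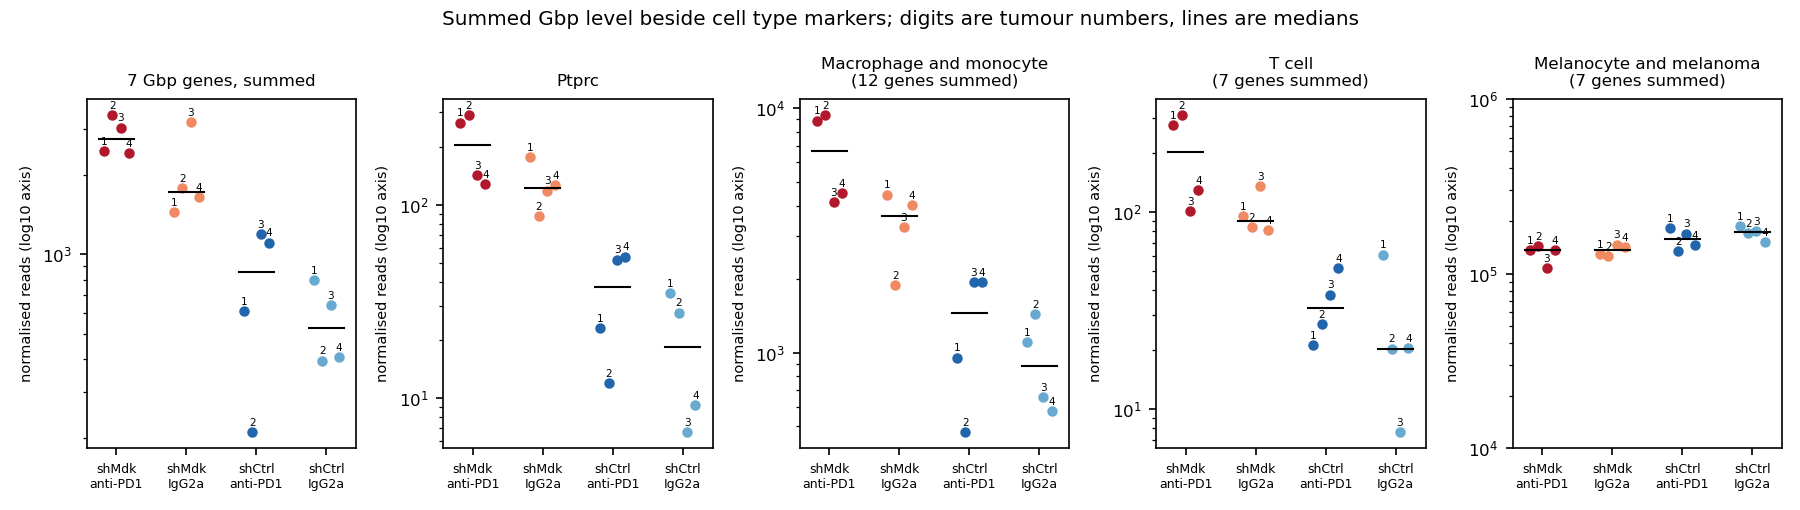
Summed normalised reads of the 7 Gbp genes beside Ptprc and the summed macrophage and monocyte, T cell and melanoma markers, on log10 axes, 1 point per tumour numbered within its group, with group medians. The Gbp sum, Ptprc and both immune sums stand highest in shMdk anti-PD1 tumours by their medians. The melanoma sum spans 107394 to 187437 over all tumours. Its medians are 136643 in shMdk anti-PD1 and 135685 in shMdk IgG2a tumours, against 157389 in shCtrl anti-PD1 and 173480 in shCtrl IgG2a tumours.

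Genes that act beside the guanylate-binding proteins were counted from lists, where 1.63% of all genes tested were called higher under IgG2a and 4.93% under anti-PD1. The immunity-related GTPases, smaller interferon-induced GTPases that load onto the same vacuoles in mice, rose in 6 of 7 genes under IgG2a and in 5 of 7 under anti-PD1 with knockdown. Iigp1 averaged 3442 ± 1215 normalised reads in shMdk anti-PD1 tumours and 528 ± 413 in shCtrl anti-PD1 tumours (log2 fold change 3.15 ± 0.54, limma adjusted p = 0.00220). Igtp averaged 1503 ± 712 in shMdk IgG2a tumours and 265 ± 124 in shCtrl IgG2a tumours (2.50 ± 0.46, limma adjusted p = 0.00744). The list's median log2 fold change was 2.94 under IgG2a and 2.41 under anti-PD1. The counts and medians include Tgtp1, which averaged 1.29 normalised reads in shCtrl IgG2a and 6.82 in shCtrl anti-PD1 tumours. Tgtp1 passed the minimum mean for testing through the shMdk tumours.

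Of the interferon gamma signalling list, 4 of 9 genes rose under IgG2a and 6 of 9 under anti-PD1. Irf1, which activates many interferon-induced genes, averaged 1525 ± 303 normalised reads in shMdk anti-PD1 tumours and 402 ± 203 in shCtrl anti-PD1 tumours (log2 fold change 2.05 ± 0.32, limma adjusted p = 0.00116). Irf8, an interferon-induced factor that myeloid cells also use for their development, rose by 2.49 ± 0.32 under IgG2a (limma adjusted p = 0.00104). Ciita, the master regulator of MHC class II genes, rose by 3.21 ± 0.66 in the same comparison (limma adjusted p = 0.0144).

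Type I interferon signalling genes rose in 0 of 8 under IgG2a and 3 of 8 under anti-PD1. A list of 8 gives few or none at the 1.63% called higher over all genes under IgG2a. Irf7 came close there, at 1.21 ± 0.31 log2 units (limma adjusted p = 0.0561). The 3 called under anti-PD1 were Irf7 (1.72 ± 0.31, limma adjusted p = 0.00275), the receptor chain Ifnar2 (0.64 ± 0.16, adjusted p = 0.0218) and Stat2 (1.25 ± 0.31, adjusted p = 0.0230). Inflammasome and pyroptosis genes rose in 1 of 9 under IgG2a, which was Casp1, the inflammasome's protease (1.26 ± 0.30, limma adjusted p = 0.0346). Under anti-PD1 4 of 9 rose: Casp1, the pore-former Gsdmd (1.41 ± 0.25, limma adjusted p = 0.00229), the DNA sensor Aim2 (3.03 ± 0.55, adjusted p = 0.00279) and Il1b (2.33 ± 0.65, adjusted p = 0.0403). Aim2 averaged 3.23 normalised reads in shCtrl anti-PD1 and 3.61 in shCtrl IgG2a tumours, so it passed the minimum mean for testing through the shMdk tumours.

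The machinery that the proteins depend on after translation gave no call in either knockdown comparison, and lists of these sizes give few or none at the shares called over all genes (1.63% higher under IgG2a and 4.93% under anti-PD1). LC3 and GABARAP conjugation, which mouse cells need to direct Gbp proteins to vacuoles, had 0 of 10 genes called, with medians of 0.01 under IgG2a and 0.07 under anti-PD1. CaaX prenylation, which attaches the lipid that anchors Gbp2 and Gbp5 to membranes, had 0 of 6. The other GTPases of the dynamin superfamily, to which the family belongs by structure, had 0 of 9. No gene of the 7 lists named in this and the preceding paragraphs on pathways was called lower in a knockdown comparison. Of all 14672 genes tested, 16 were called lower under IgG2a and 146 under anti-PD1, so these lists give few or none at those shares.

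Outside the family, the 5 genes whose centred log2 profile over the 16 tumours lay nearest to the mean Gbp profile were Igtp, Zbp1, Iigp1, Tgtp2 and H2-Aa. Their root mean square differences from it were 0.371, 0.383, 0.455, 0.474 and 0.485 log2 units, beside a median of 1.63 over 12364 genes. Igtp, Iigp1 and Tgtp2 are immunity-related GTPases, Zbp1 is a sensor of Z-form nucleic acids and H2-Aa a chain of MHC class II. H2-Aa averaged 4240.3 ± 1349 normalised reads in shMdk anti-PD1 tumours and 1996 ± 978 in shMdk IgG2a tumours, against 551 ± 399.7 in shCtrl anti-PD1 tumours and 177 ± 40.1 in shCtrl IgG2a tumours. Within the family, Gbp2 lay nearest to the mean of the others (0.301) and Gbp4 farthest (1.03), and Gbp3 and Gbp7 were each other's nearest member (0.425).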

How the data were processed

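RNA of 16 tumours was read from the 3′ end with a stranded kit, from 500 ng of total RNA, per the labels' protocols. Per the submitters' processing notes, the authors used TopHat2 2.0.10 and Bowtie 1.0.0 with GRCm38 (mm10), FastQC 0.11.0 and SAMtools 0.1.19, and HTSeq and DESeq2. The deposited table holds a normalised signal per gene and tumour. Dividing by the value of 1 read gave whole counts for 100% of values within 0.001, and size factors recomputed as medians of ratios from those counts matched. Reads sharing a sequence between Gbp genes could be lost or split.

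The tests used R 4.3.3 and limma 3.58.1 (trend) on log2(value + 1) of the 14672 genes with a mean of at least 5, all 4 groups in 1 fit, Benjamini-Hochberg over all genes, threshold 0.05. The labels describe separate tumours. edgeR 4.0.16 (TMM, quasi-likelihood) and DESeq2 1.42.0 on the recovered counts, other pseudocounts, filters and scalings and leaving out libraries were alternatives. Scripts were tested on simulated data. Single-gene checks were two-sided exact permutation tests. The rule named all 7 genes, Gbp9, Mdk, up to 4 genes per list by smallest p and the 5 nearest profiles. Members and lists were chosen with earlier results of these data known. Further marker lists (dendritic, neutrophil, endothelial, fibroblast) rose in 1 of 4, 0 of 5, 0 of 5 and 0 of 4 genes under IgG2a with knockdown and in 2 of 4, 1 of 5, 3 of 5 and 2 of 4 under anti-PD1. Those lists held 7, 6, 6 and 6 genes, and the counts cover the ones found in the data. Over all genes tested, 1.63% were called higher under IgG2a and 4.93% under anti-PD1.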

Additional observations from a re-analysis of the deposited data

How the results depend on the processing

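No paired analysis was possible because replicate numbers were given in accession order and pair no tumours. Over the 7 genes and Gbp9, no setting turned the direction of a called difference. The count of the 7 genes called with knockdown under IgG2a, 4, ran from 2 to 6 over the 16 fits that left out 1 tumour and was 0 of 6 tested without the 5 libraries with a positive GC slope, where each IgG2a group kept 2 tumours. Under anti-PD1 it ran from 4 to 6 over all settings. The antibody comparisons and the difference of effects gave 0 called in all settings. Over all genes, the knockdown count under IgG2a was 255, ran from 136 to 363 on leaving out 1 tumour, and was 74 without those 5 libraries and 449 with DESeq2. Under anti-PD1 it was 870, ran from 443 to 912, and was 1310 with DESeq2. In shMdk tumours the antibody count was 5 of all genes, 1826 had an unadjusted p under 0.05, and edgeR called 8 and DESeq2 248. In shCtrl tumours it was 0, with 556 unadjusted and 7 with DESeq2.

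Directions turned for differences that passed in no setting, and the cause was not tested. For the difference of antibody effects, edgeR gave -0.39 for Gbp2, -0.26 for Gbp5, -0.95 for Gbp6, -0.10 for Gbp7 and -1.11 for Gbp8, and DESeq2 gave -0.35, -0.25, -1.02, -0.0741 and -1.20 for the same genes. Without the 2 libraries high in Gm42418 these were -0.48, -0.44, -0.93, -0.57 and -0.34. Gbp3 became 0.0147 with a pseudocount of 5 and 0.0354 without the 5 libraries. On leaving out 1 tumour, it ran from -0.44 to 0.49 for Gbp2, -0.43 to 0.26 for Gbp3, -0.26 to 1.17 for Gbp5, -0.44 to 0.68 for Gbp6, -0.35 to 0.44 for Gbp7, -0.45 to 0.75 for Gbp8 and -1.06 to 0.0504 for Gbp9. For anti-PD1 in shCtrl tumours, Gbp5 became -0.14 with a pseudocount of 0.5, -0.0163 without the 5 libraries and -0.52 to 0.92 on leaving out 1 tumour, and Gbp7 ran from -0.21 to 0.58. Gbp6 fell under the filter in 7 of 16 such fits. Depth limits Gbp6 and Gbp8 most, each with 4 reads over the shCtrl IgG2a group.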
